A study of Mus musculus with 5 samples.

Results

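A bidirectional promoter is a stretch of DNA from which 2 genes are read in opposite directions. The peaks described here are the sites of histone H3 acetylated at lysine 9 (H3K9ac) that lay at such promoters in STHdh Q111 cells. A divergent pair was defined from the GENCODE vM1 annotation of the mm9 mouse genome as 2 protein-coding genes on opposite strands, with a start site of the minus-strand gene upstream of a start site of the plus-strand gene by at most 1000 bp. Where genes had several start sites, the closest couple was used. A peak belonged to the set when its centre lay within 1 kb of the midpoint between both starts. Of the 67641 peaks in the 2 deposited lists, 5589 met the rule. The DOP list held 2771 of them among 34286 peaks (8.08%) and the SST list 2818 among 33355 (8.45%). No measured value was used to choose them.

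STHdh Q111 cells are an immortalized line of striatal progenitors from a mouse whose huntingtin gene, in both copies (STHdhQ111/Q111), carries an expanded CAG repeat, and the labels give C57BL/6 as the strain. Every sample came from this mutant line, kept for 24 h in medium without serum. Cells received either 4 mM DOP (4-deoxypyridoxine hydrochloride, an inhibitor of sphingosine-1-phosphate lyase) in 2 samples, or its DPBS vehicle in 2 samples (SST, named the untreated list in the plots), and 1 further sample of vehicle-treated cells was precipitated with IgG. H3K9ac was measured by ChIP-seq, in which DNA bound to the modified histone is pulled down and sequenced. The submitters deposited 1 list of peaks for each condition, so the comparison of DOP with SST has no replicate error. All differences below are differences between 2 lists, all intervals are 95% Wilson intervals that cover counting error alone, and neighbouring peaks or pairs are not replicates of a condition. Each peak carries a score from the authors whose definition is not given, and the lists are compared by its rank. Scores of single peaks are printed as deposited and are not known to share a scale between the lists. The median score of all peaks was 418.7 in the DOP list and 399.8 in the SST list. A percentile of 90 means that 90% of the peaks of that list score no higher. Read depth is unknown.

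As to the labelled cell type, 2 of 6 neural progenitor markers had a peak within 1 kb of a start in both lists, which were Vim and Msi1, while Nes, Sox2 and Pax6 were among those with none in either list. Of 7 ventral forebrain and striatal markers, 3 had a peak in the DOP list (Dlx1, Foxp1 and Ppp1r1b) and 2 in the SST list. The defining striatal neuron genes Drd2 and Bcl11b had none. Both fibroblast collagens, Col1a1 and Col3a1, had peaks in both lists, whereas the astrocyte, microglia and endothelium markers (2 of each) had none. Mbp, an oligodendrocyte gene, had peaks in the DOP list alone, at a percentile of at most 7.58. The DOP peak of Ppp1r1b, which had none in SST, was low as well, at percentile 11.3. At such low ranks many DOP peaks had no overlap in the SST list, as given below. One of these markers, Pecam1, is a member of a divergent pair, and that pair had no peak. Most of the markers of the labelled tissue thus had no peak at their starts, and the part of this in the values at divergent promoters was not tested.

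H3K9ac is laid down by acetyltransferases such as Gcn5 and Pcaf and is removed by histone deacetylases, and it sits on the nucleosomes that flank the start sites of active genes. The start itself is usually kept free of nucleosomes so that RNA polymerase can bind. At an ordinary promoter the strongest acetylation is found on the first nucleosomes inside the gene. At a bidirectional promoter polymerases leave in both directions from 1 shared open stretch, so that the upstream side of each gene is also the inside of its neighbour. Many such promoters lie in CpG islands, lack a TATA box and serve housekeeping genes of DNA repair, mitochondria and protein folding. The study asked how inhibition of the lyase alters H3K9ac in mutant cells.

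Sequences of 4 stretches between paired start sites are given as examples of such a promoter at the level of bases, because the short gap, the CpG content and the ETS letters recur in the results below. They were read from the plus strand of mm9, with 20 bases beyond each start. Capitals mark CCGGAAG, the letters of an ETS site, or their reverse complement CTTCCGG. Surf1/Surf2, Hspd1/Hspe1 and Mrps12/Sars2 carried peaks in both lists and Col4a4/Col4a3 carried none. Each of these marked examples holds the ETS letters, which is not typical. Of all pairs with a peak in either list, 29.5% held them in 300 bp around the midpoint.
Surf1/Surf2, chr2:26771846-26771907: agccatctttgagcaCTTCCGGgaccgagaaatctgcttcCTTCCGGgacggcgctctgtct
Hspd1/Hspe1, chr1:55144848-55144996: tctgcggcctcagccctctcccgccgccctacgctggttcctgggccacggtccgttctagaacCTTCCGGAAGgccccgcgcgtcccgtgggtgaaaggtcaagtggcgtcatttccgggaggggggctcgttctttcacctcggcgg
Mrps12/Sars2, chr7:29526819-29527030: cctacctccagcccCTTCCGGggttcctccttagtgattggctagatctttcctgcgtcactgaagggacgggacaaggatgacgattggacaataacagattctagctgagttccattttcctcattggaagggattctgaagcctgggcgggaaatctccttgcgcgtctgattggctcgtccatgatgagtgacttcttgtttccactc
Col4a4/Col4a3, chr1:82583404-82583571: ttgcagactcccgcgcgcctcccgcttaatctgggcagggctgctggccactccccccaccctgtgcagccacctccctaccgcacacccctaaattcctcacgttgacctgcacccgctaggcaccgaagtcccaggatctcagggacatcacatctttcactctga

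The stretch of Surf1/Surf2 is 62 bases long, with 5 CpG dinucleotides and 2 separate ETS matches, and it serves a cytochrome oxidase assembly factor (Surf1) and its neighbour. The stretch of Hspd1/Hspe1, the mitochondrial chaperonin and its co-chaperonin, holds 16 CpG in 149 bases and 2 ETS matches that overlap on opposite strands. That of Mrps12/Sars2, a mitochondrial ribosomal protein and the mitochondrial seryl-tRNA synthetase, holds 1 ETS match and 4 CCAAT matches in 212 bases. The stretch of the basement membrane collagens Col4a4 and Col4a3 holds 8 CpG in 168 bases and none of the letters searched. A match of letters is a description of the window and not a measured binding site.

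The annotation gave 1081 divergent pairs with 2141 genes, which are 9.57% of the 22380 protein-coding genes, at 1065 distinct promoters. The annotation holds some genes under more than 1 identifier, so that 10 pairs repeat the symbols of another, and the gene groups below count such pairs once. Chromosome 1 held 65 pairs and chromosome X 29. The gap between the paired starts had a median of 135 bp (quartiles 69 and 271 bp, range 1 to 994 bp), and 845 pairs (78.2%) lay at most 300 bp apart.

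H3K9ac was found at nearly all of these promoters in both conditions. In the DOP list 995 of 1081 pairs held at least 1 peak (92.0%, interval 90.3 to 93.5), and in the SST list 990 (91.6%, interval 89.8 to 93.1). Over all protein-coding genes, 51.0% had a DOP peak and 50.5% an SST peak within 1 kb of a start site. Both lists marked 985 pairs, which are all but 10 of the DOP pairs and all but 5 of the SST pairs, and 81 pairs had no peak in either.

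A marked pair usually held several peaks. The median was 3 peaks in each list, with a mean of 2.83 in the DOP list and 2.90 in the SST list. Under DOP 89 pairs held 1 peak, 289 held 2, 361 held 3, 216 held 4 and 40 held more. In the SST list the same counts were 95, 270, 335, 231 and 59. The lists gave equal numbers at 444 pairs, a higher number under DOP at 258 and a higher number in SST at 298. Most unequal pairs, 437 in all, differed by 1 peak, and the largest excess was 4 peaks in either direction. The SST list thus held more peaks at divergent promoters than the DOP list although it was the shorter list in total, and this order did not hold when pairs were defined from the 5' ends of genes alone (2112 DOP and 2111 SST peaks).

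The largest numbers of peaks over both lists were 12 at Sf3b3/Cog4 and 11 at Orc4/Mbd5, followed by 10 at each of 15 pairs. Sf3b3/Cog4, a splicing factor subunit with a Golgi tethering protein, had 5 DOP peaks with scores of 1191.7 and 1930.3 on the Sf3b3 side and 1267.2, 859.6 and 469.2 on the Cog4 side. Its 7 SST peaks scored 981.3, 1465 and 880.7 on the Sf3b3 side and 611.7, 1087, 518.5 and 576.8 on the Cog4 side. The highest peak lay inside Sf3b3 in both lists. Orc4/Mbd5, which joins a subunit of the replication origin complex to a methyl-CpG-binding domain protein, had 4 DOP peaks (301.1 and 930.9 on the Orc4 side, 965 and 505 on the Mbd5 side). In SST the Orc4 side alone carried 5 peaks, with scores of 210, 227.5, 299.8, 430.9 and 361.7, and the Mbd5 side carried 742.3 and 472. A side with more peaks here had lower ones. 5830403L16Rik/Glul, 1 of the 15 pairs and with the glutamine synthetase gene Glul, held 4 DOP peaks and 6 SST peaks, of which 1 in each list lay between the starts (353.7 and 201).

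Most peaks stood on either side of the shared stretch. That stretch is short (median gap 135 bp) beside the window of 1 kb to each side, which leaves little room for a centre in it. Of the DOP peaks, 1231 (44.4%) were centred inside the minus-strand gene, 1434 (51.8%) inside the plus-strand gene and 106 (3.83%, interval 3.17 to 4.61) between the starts. In the SST list the counts were 1214 (43.1%), 1521 (54.0%) and 83 (2.95%, interval 2.38 to 3.64). Of the pairs with a peak, 757 DOP pairs (76.1%, interval 73.3 to 78.6) and 746 SST pairs (75.4%, interval 72.6 to 77.9) had peaks on both sides. The pairs with peaks on both sides were shared to a large extent, with 691 in both lists, 64 two-sided under DOP and one-sided in SST, and 52 the other way round.

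**Figure D1:**
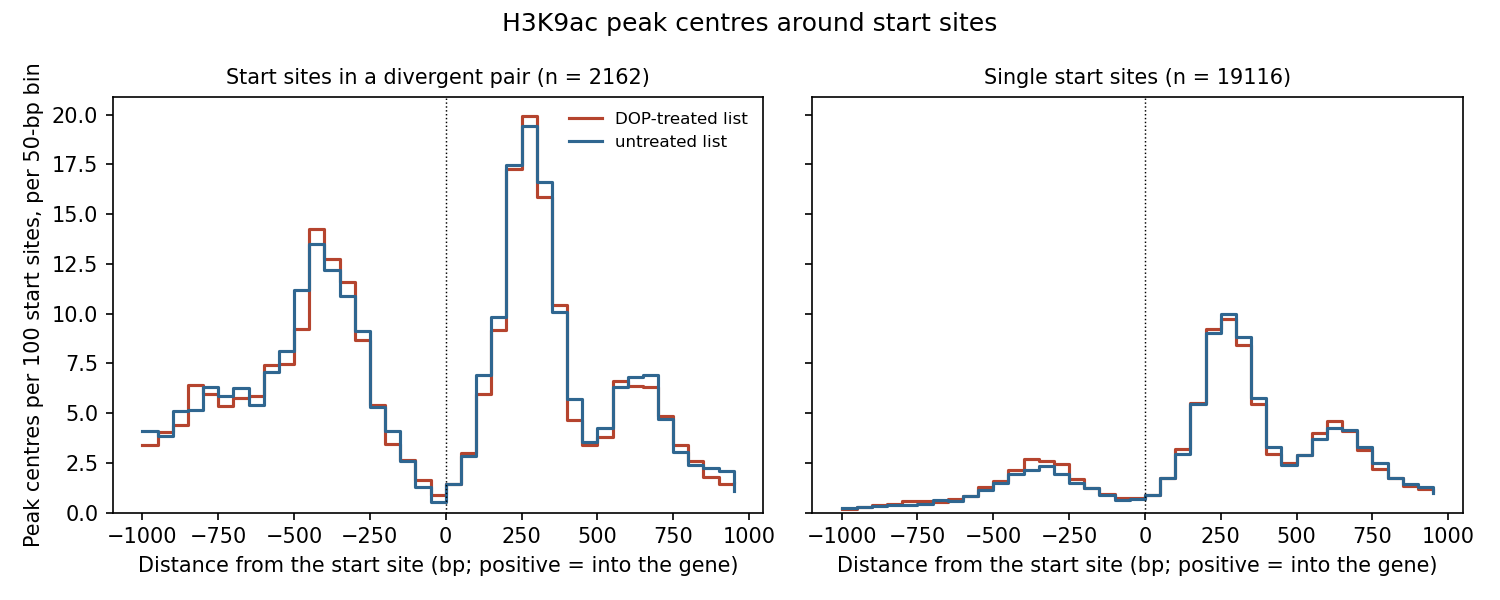
Number of peak centres per 50 bp bin and 100 start sites (vertical axis) against the distance from the start site in bp, negative values upstream, for starts in divergent pairs and for single starts, in each list. Both kinds of start have a maximum 250 to 300 bp inside the gene, and an upstream maximum is present at both, with 14.2 (DOP) and 13.5 (SST) centres per 100 paired starts and 2.70 and 2.35 per 100 single starts.

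Acetylation appeared at a like distance from the start in both directions. In pairs marked on both sides, the peak closest to the start lay a median of 263 bp inside the minus-strand gene and 259 bp inside the plus-strand gene under DOP, and 260 and 250.5 bp in SST. The quartiles over both sides were 206 and 318 bp in the DOP list. The innermost peaks of the 2 sides were a median of 693 bp apart in the DOP list and 680 bp apart in the SST list. The DOP centres were most frequent 350 to 400 bp left of the midpoint (160 peaks in that 50 bp bin) and 300 to 350 bp right of it (189 peaks). A further, lower maximum lay deeper in the genes, with 6.61 DOP centres per 100 paired starts at 550 to 600 bp and 6.89 SST centres at 650 to 700 bp. At single starts this maximum was at 600 to 650 bp, with 4.59 and 4.27 centres per 100 starts. Within 100 bp of the midpoint there were 91 DOP and 74 SST peaks. By annotation, 1613 DOP centres (58.2%) lay in introns, 583 (21.04%) in non-coding parts of exons, 499 (18.01%) in coding exons and 76 (2.74%) outside genes, and the shares in the SST list differed from these by less than 1 percentage point.

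Paired starts differed from single starts on the upstream side. Single starts were the 5' ends of genes in no pair and more than 2000 bp from a pair midpoint or from the start of another gene, and there were 19116 of them. A peak within 1 kb was present at 91.6% of the 2162 paired starts in the DOP list (interval 90.4 to 92.7) and at 43.4% of the single starts. Among the starts with a peak, an upstream peak was found at 89.5% of paired starts (interval 88.1 to 90.8) and 42.5% of single starts (interval 41.5 to 43.6). In SST the upstream shares were 88.2% and 38.1%. A downstream peak was present at 88.7% of the marked paired starts and 97.5% of the marked single starts in the DOP list. The upstream peaks of a paired start are the downstream peaks of its partner, so the upstream share is a consequence of the rule wherever the partner is acetylated.

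The base composition of the starts moved with this contrast. In the 500 bp around the start, the median GC content was 62.6% for paired and 56.2% for single starts, and the median ratio of observed to expected CpG was 0.818 and 0.518. With both kinds limited to a CpG ratio of at least 0.6, a DOP peak was present at 97.0% of 1863 paired and 81.6% of 8554 single starts. Among the marked ones, 90.3% and 46.1% had an upstream peak in the DOP list, and 89.1% and 41.0% in the SST list. Both contrasts between paired and single starts were smaller among CpG-rich starts, the one in coverage by more than the one on the upstream side. The part of base composition in them was not tested.

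**Figure D2:**
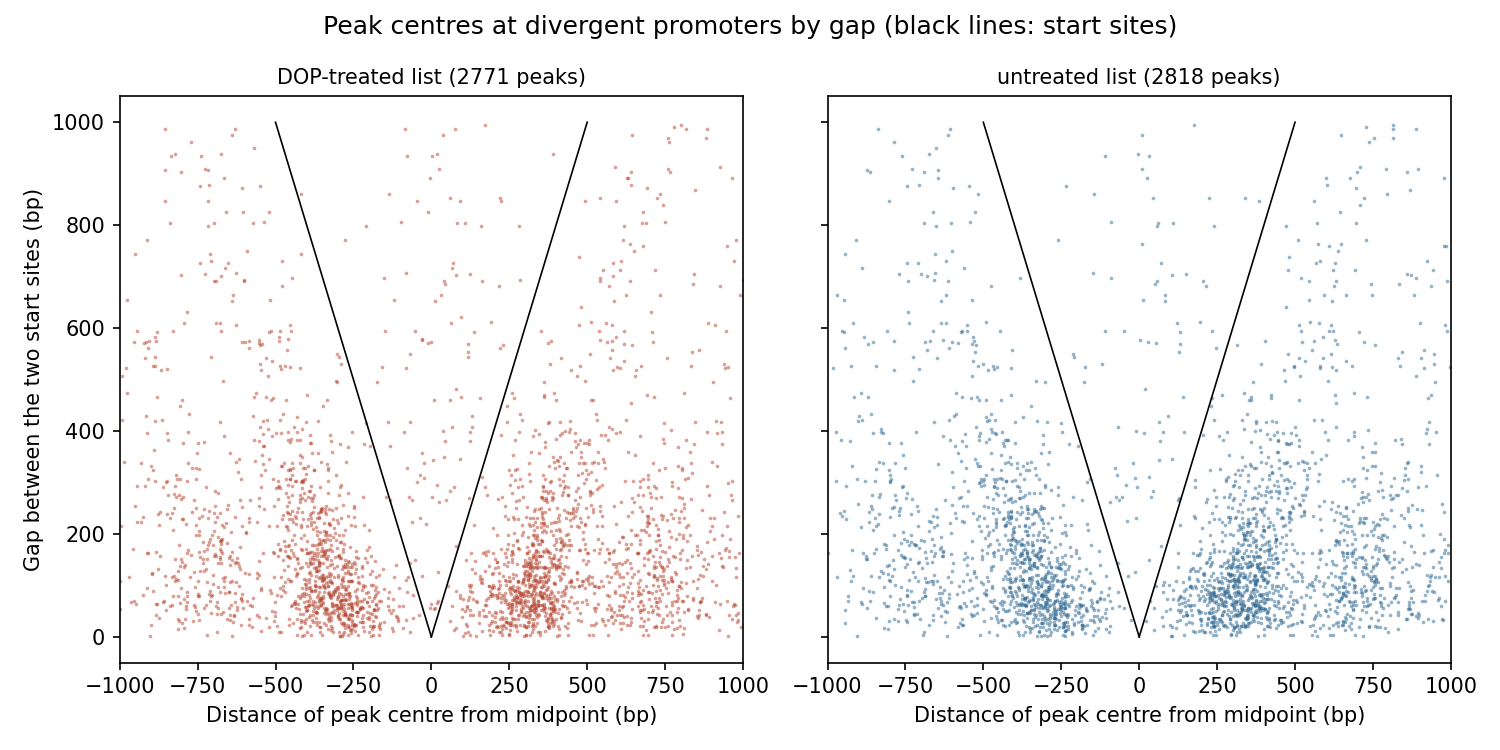
Each point is the centre of 1 peak in 1 divergent pair, with its distance from the pair's midpoint in bp on the horizontal axis and the gap between the paired starts in bp on the vertical axis, in separate panels for the DOP and SST lists. Lines mark both start sites, and the centres lie in a band on either side that moves outward as the starts move apart.

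The plus-strand side carried more peaks than the minus-strand side. Of the peaks on either side, 46.2% (interval 44.3 to 48.1) were on the minus-strand side in the DOP list and 44.4% (interval 42.5 to 46.3) in the SST list. In the higher-scoring 50% of each list the shares were 47.8% (interval 45.5 to 50.1) and 47.5% (interval 45.3 to 49.8). The same preference for higher coordinates was present at single starts, which were chosen in the same way on either strand. Under DOP 34.9% of marked single starts on the plus strand had an upstream peak, against 50.3% on the minus strand, and in the SST list 30.8% and 45.5%. One-sided pairs have the same tilt, with 147 marked on the plus side alone and 89 on the minus side alone in the DOP list, and 158 and 85 in the SST list. Its part in the differences between the 2 sides was not tested.

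The band of peaks followed the start sites when they stood further apart. In pairs marked on both sides with gaps of 1 to 100 bp, the innermost peaks were a median of 583.5 bp apart in the DOP list (314 pairs) and 569 bp in the SST list (309 pairs). At 201 to 300 bp they were 771 bp (107 pairs) and 762 bp (105 pairs) apart, and at 501 to 1000 bp 1226 bp (53 pairs) and 1188.5 bp (50 pairs). The median distance into the gene stayed between 218 and 270 bp in all bins, on both sides and in both lists. The innermost peaks inside the genes thus lay at a like distance from each start at all gaps. Only centres at or beyond the starts enter this measure, so their separation cannot be smaller than the gap and grows with it by construction. Peaks between the starts are left out. At 501 to 1000 bp the measure covers 53 of 95 marked DOP pairs, and 51 of the 95 had a peak between the starts.

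A peak between the starts appeared once there was room for it. With DOP 6 marked pairs (1.52%) with a gap of 1 to 100 bp had such a peak, 5 (1.90%) at 101 to 200 bp, 13 (9.92%) at 201 to 300 bp, 25 (22.7%) at 301 to 500 bp and 51 (53.7%) at 501 to 1000 bp. In the SST list the counts were 0 (which allows up to 0.961%), 5, 12, 18 and 44. The DOP list had at least as many pairs of this kind in every bin. The share of marked pairs with peaks on both sides was 79.3% at the shortest gaps and 55.8% at the widest in the DOP list (78.0% and 53.2% in SST). The window of 1 kb around the midpoint leaves less of each gene in view when the gap is wide, and this limits the last comparison.

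**Figure D3:**
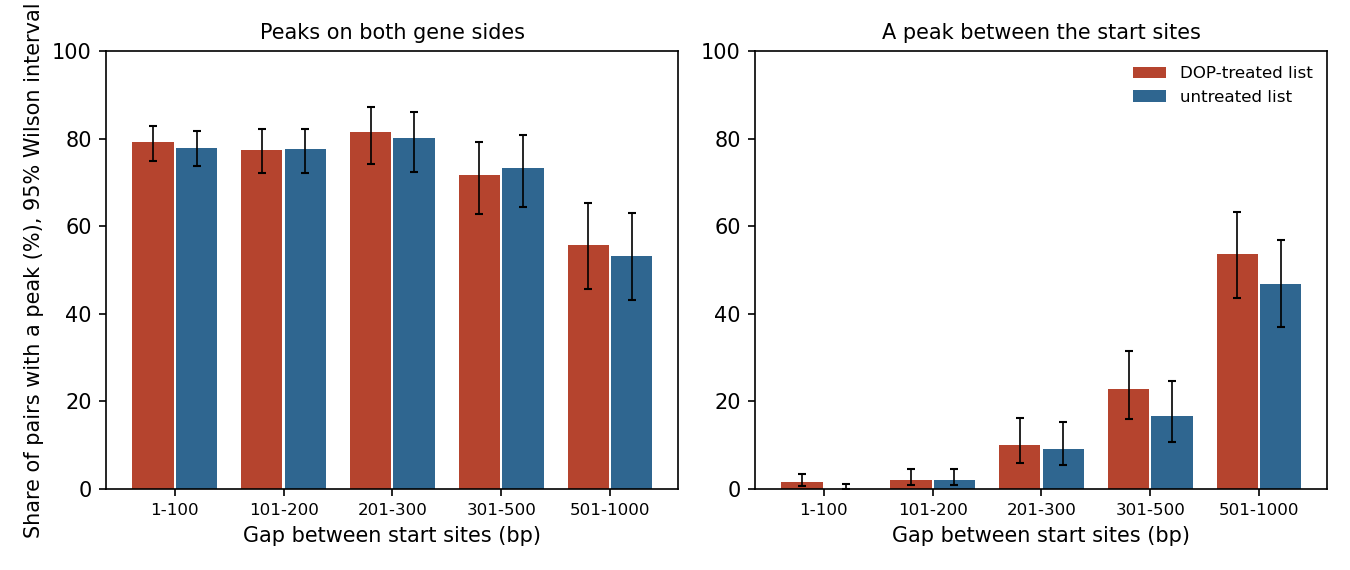
Share of pairs in percent (vertical axes) by the gap between the paired starts in bp (horizontal axis), for marked pairs with peaks on both gene sides (left) and with a peak between the starts (right), in each list, with 95% Wilson intervals as bars. The share with a peak between the starts is under 2% at gaps of up to 200 bp and reaches 53.7% (DOP) and 46.8% (SST) at 501 to 1000 bp.

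Members were ranked high in their lists. Their median score was 578.8 in the DOP list (percentile 65.1, range of scores 44.7 to 2992) and 544 in the SST list (percentile 64.0, range 25.1 to 3106.6). Other peaks within 1 kb of a start site, 22505 in the DOP list, had a median percentile of 58.7, and peaks further away one of 20.1. Taking the highest peak of each marked pair, the median percentile was 81.7 in the DOP list and 81.4 in the SST list. In 914 DOP pairs (91.9%) and 902 SST pairs (91.1%) that peak was in the upper 50% of its list. These values take the highest of a median of 3 peaks, which raises them above the rank of a single peak by construction. No like value for other promoters is given.

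The 2 sides of a pair differed in the rank of their highest peak, in most pairs by at most 20 percentile points. No like value for genes outside a pair is given. In pairs with peaks on both sides the highest peaks of the 2 sides were a median of 14.8 percentile points apart in the DOP list and 15.5 in the SST list, and they were more than 20 points apart in 299 (39.5%) and 298 (39.9%) pairs. The minus-strand side was the higher one in 388 DOP pairs and the plus-strand side in 369, and in SST these counts were 404 and 342. Of the 691 pairs with peaks on both sides in both lists, 573 (82.9%, interval 79.9 to 85.5) had the same side higher in both. Where the sides were more than 20 points apart in the DOP list, the same side was higher in the SST list in 249 of 256 pairs. Which side held the higher-ranked peak was thus mostly common to both lists.

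Among the members, the pairs with the 3 highest peaks of each list were 4 in all. Zfp319/AA960436 on chromosome 8, with a zinc finger gene on the minus strand, had a peak of 2992 in the DOP list and 2943 in the SST list, 395 and 401 bp inside Zfp319, against 567.3 and 715.7 on the other side. Hnrnph3/Pbld2 on chromosome 10, with an RNA-binding splicing regulator, reached 2861.6 and 3106.6 inside Hnrnph3, while the highest peaks inside Pbld2 scored 771.2 and 426. In these 2 pairs the highest peak of 1 side scored well above that of the other. Dnajb4/Fubp1 on chromosome 3, a DnaJ co-chaperone with a single-stranded DNA-binding regulator of Myc, was high on both sides: 2361 and 2672 on the Dnajb4 side and 2746.4 and 2817.6 on the Fubp1 side. At Hnrnpk/Rmi1 on chromosome 13, a further RNA-binding protein beside a subunit of the Bloom helicase complex, the Hnrnpk side had 2497 in the DOP list and 2912 in the SST list, and the highest peak of the Rmi1 side 1692.5 and 1794.3. At all 4 pairs the higher side was the same in both lists.

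**Figure D4:**
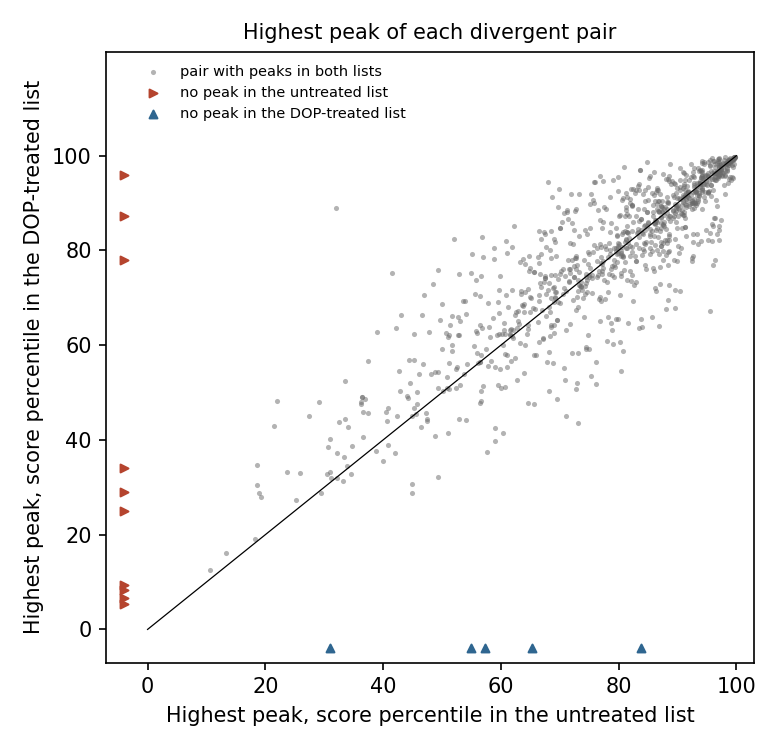
Percentile of the highest-scoring peak of each divergent pair in the SST list (horizontal axis) against that in the DOP list (vertical axis), 1 point for each of the 985 pairs marked in both lists and a triangle beside an axis for each pair marked in 1 list only. Points lie along the diagonal, and 23 pairs lie more than 20 points above it and 15 more than 20 points below.

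Between DOP and SST the rank of a pair within its list mostly stayed put. Such a rank cannot show a change in acetylation that is common to all peaks. By western blot, the study reported a higher total level of H3K9ac in Q111 cells after DOP. Over the 985 pairs marked in both lists, the percentile of the highest peak under DOP minus that in SST had a median of 0.355 points, with quartiles of -2.52 and 4.80. The rank was higher in the DOP list in 528 pairs and in the SST list in 457. The Spearman correlation between the lists was 0.866 over these pairs, which share the cell line, the antibody and the peak caller. It was more than 20 points higher in the DOP list in 23 pairs and in the SST list in 15.

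The pairs with the widest difference in rank were picked after their values were seen. Nt5c3l/Klhl10, a nucleotidase and a Kelch-like gene known from sperm, had 1 peak in each list, with a score of 1060 (percentile 88.9) under DOP and 251.1 (percentile 32.0) in SST. Osgep/Apex1, where Apex1 is the main endonuclease of base excision repair, had 3 DOP peaks of up to 733 (percentile 75.3) and 1 SST peak of 328 (percentile 41.6). In the other direction Recql/Golt1b, with a RecQ helicase, scored up to 607.9 (percentile 67.3) under DOP and 1411.2 (percentile 95.5) in SST. Spcs2/Xrra1, with a signal peptidase subunit, scored up to 360.8 (percentile 43.5) and 670 (percentile 73.1). With 1 list per condition these differences have no error.

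Few of the members were found in 1 list alone. A peak was counted as shared when its interval overlapped one of the other list by at least 1 bp. In the DOP list 261 members (9.42%, interval 8.39 to 10.6) had no overlap, against 20% of all DOP peaks. In the SST list the number was 253 (8.98%, interval 7.98 to 10.1), against 16.7% of all SST peaks. The closest comparison is with the other promoter peaks, of which 12.9% (interval 12.5 to 13.4) were found in the DOP list alone and 10.3% (interval 9.88 to 10.7) in the SST list alone.

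This difference moved with the rank of the peaks. In the upper 50% of the DOP list 3.91% of members (75 of 1919, interval 3.13 to 4.87) and 3.93% of other promoter peaks were in that list alone, and in the upper 50% of the SST list 4.16% of members (80 of 1923, interval 3.36 to 5.15) and 3.60%. Among DOP peaks in the lowest 20% of scores, 49.6% of members and 50.2% of other promoter peaks were in that list alone, and in the highest 20% the shares were 1.70% and 1.51%. For SST peaks they were 40.6% and 37.5% at the lowest ranks and 2.08% and 1.76% at the highest. At a like rank, members and other promoter peaks thus had similar shares in 1 list only.

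Every peak interval is 200 bp wide, so the centres of shared peaks lie less than 200 bp apart by the rule for sharing. The centre of a shared DOP member was a median of 30 bp from the nearest SST centre (quartiles 12 and 60 bp), and 546 members (19.7% of the DOP members) were within 10 bp. Other promoter peaks of the DOP list had similar values, with a median of 33 bp for shared ones and 17.0% of all of them within 10 bp. Most members without overlap still had a near neighbour: 162 of the 261 DOP members (62.1%) and 181 of the 253 SST members (71.5%) were within 500 bp of a centre of the other list. A distance of over 1 kb was left for 26 DOP members (9.96%) and 19 SST members (7.51%). Among other promoter peaks without overlap, 20.5% in the DOP list and 18.4% in the SST list were that far. Most members without overlap were thus shifted or added beside a peak of the other list.

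There were 10 pairs with peaks in the DOP list alone. Of the 1000 pairs with a peak in either list, 995 had one in the DOP list and 990 in the SST list. Beside them, 8542 single starts had a peak in either list, of which 8287 had one in the DOP list and 8186 in the SST list. The highest peaks of the 10 pairs had a median percentile of 27.0, and 5 of these pairs held a single peak. Vps35/Orc6 on chromosome 8 stood out by its scores. It joins the retromer subunit Vps35 to a subunit of the replication origin complex, and it had 1 peak of 1444.8 at 163 bp inside Vps35 and peaks of 1150.9 and 1374.4 at 98 and 445 bp inside Orc6. The nearest SST centre to any of them was 108399 bp away, so that no SST peak of any score lay near either gene start. Pigw/Myo19, with an enzyme of GPI anchor synthesis and a mitochondrial myosin, had peaks of 1006.8 and 721.2 inside Myo19, with the nearest SST centre 9412 bp away. Thoc6/Hcfc1r1, with a subunit of the mRNA export complex THO, had peaks of 388 and 784 inside Hcfc1r1, but here the nearest SST centres lay 1237 and 683 bp away, outside the window of the pair. The remaining 7 pairs, with highest percentiles of at most 34.2, were 5033414D02Rik/Cd274, Cln3/Apobr, Dos/Atp5d, Mapk4/Gm9925, Rgag4/Nhsl2, Hspa1a/Hspa1l and Spry4/9630014M24Rik. Hspa1a belongs to a family of near-identical heat shock genes, and the placement of its peaks is uncertain.

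Conversely, 5 pairs had peaks in the SST list alone. 2310061C15Rik/Cenpn, with a protein of the centromere, had scores of 880.5, 808.5 and 367, and the nearest DOP centre was 21280 bp away. Fam126b/Ndufb3, with a subunit of respiratory complex I, had scores of 559.3, 534.7 and 351, with the nearest DOP centre at 27047 bp. 6330408A02Rik/Lig1, with the ligase that seals replicated DNA, had scores of 309.6, 244.1, 471.3 and 217 with the nearest DOP centre 154410 bp away. Each of these 3 pairs was marked on both sides in SST. Sobp/9030612E09Rik held 1 peak. Pairs such as Vps35/Orc6 and 2310061C15Rik/Cenpn thus had several high-ranked peaks in 1 list and none for 20 kb or more in the other, and the lists alone do not tell a change in acetylation from a region that was left out of 1 call, which was not tested.

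Pairs named in textbooks as divergent were mostly marked in the way described above. Of 14 such pairs, 8 met the rule in this annotation, and 7 of them had peaks on both sides in both lists, with 22 DOP and 23 SST peaks in all. The exception was Col4a4/Col4a3. At Hspd1/Hspe1 the DOP list had scores of 677.4 and 1285.4 inside Hspd1 and 849.3 inside Hspe1, and the SST list 629.6, 1361.4, 930.2 and 263.8 from left to right. Hspd1 carried the higher peak in both lists, at percentiles of 93.8 and 94.99. At Surf1/Surf2, with a gap of 21 bp, the DOP list had 946 inside Surf1 and 767.1 and 498.9 inside Surf2, and the SST list 894, 363.4 and 759.6. Here the peak inside Surf1 was the higher one and moved by 12 bp between the lists. At Mrps12/Sars2 the Mrps12 side had 658 in the DOP list and 535 in the SST list, and the Sars2 side 469.8 and 134.2 under DOP and 441 in SST.

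Several of these textbook pairs join genes of DNA repair and replication. Brca1/Nbr1, the breast cancer repair gene beside an autophagy receptor, had a DOP peak of 707 at 252 bp inside Brca1 and one of 754 at 221 bp inside Nbr1. The SST list had 711.9 and 785 in their places, 25 and 6 bp away, and a further peak of 294.1 inside Brca1. Atm/Npat, the kinase of the double-strand break response and the activator of histone genes, had 371.3 and 638.7 inside Atm and 847.6 and 657.5 inside Npat under DOP, and 395.8, 544.2, 949.3 and 803.6 in SST. The Npat side was the higher one in both lists. Mcm4/Prkdc, a replicative helicase subunit and the catalytic subunit of DNA-dependent protein kinase, was the only one of the 8 with a peak between the starts, which are 466 bp apart, at 325.7 under DOP and 351.2 in SST. Its highest peak lay inside Mcm4 at 1008.1 and 1031.6.

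The share of genes that lay in a divergent pair differed between gene groups. The groups and their members were chosen with earlier results of these data known, groups were filled by gene symbol, and each count is a description beside the 9.57% of all protein-coding genes that lay in a pair and the 92.0% (DOP) and 91.6% (SST) of pairs with a peak. The marked shares of the groups below lie near the latter and are no trait of a group. Of 121 genes of DNA repair and replication, 42 (34.7%) lay in 41 pairs, of which 39 had a peak in each list. Pms1/Ormdl1, with a mismatch repair protein, was among the highest of them, with DOP scores of 1739.3 inside Pms1 and 1600.7 inside Ormdl1, and SST scores of 1623.7 inside Pms1 and 1510.3 and 990 inside Ormdl1. The pair of this group without a peak was 2610109H07Rik/Mad2l2.

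Genes that act in mitochondria were paired at a like rate. Of 76 genes of the mitochondrial ribosome 24 (31.6%) lay in 23 pairs, all with peaks in both lists, and of 98 genes of the respiratory chain 27 (27.6%) lay in 27 pairs, with 26 marked in each list. Mrpl46/Mrps11, which holds 1 protein of each mitochondrial ribosomal subunit 53 bp apart, had 1 peak on each side in both lists, of up to 643.8 under DOP and 730 in SST. Of 38 tRNA synthetase genes, 11 (28.9%) lay in 10 pairs, all marked. Hars/Hars2, the cytosolic and mitochondrial enzymes for histidine with starts 26 bp apart, had only 1 peak in each list, of 800 and 855, and both lay on the Hars side. Of 82 chaperone genes 23 (28.0%) lay in 21 pairs, with 20 DOP and 19 SST pairs marked, and of 48 proteasome genes 10 (20.8%) lay in 10 pairs, all marked. Of 80 genes of the cytosolic ribosome 14 (17.5%) lay in 14 pairs, with 13 marked in each list, and the median percentile of the highest peak was 88.0 (DOP) and 86.7 (SST).

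Of 367 zinc finger genes of the Zfp series, 23 (6.27%) lay in 20 pairs, all marked. Zfp668/Zfp646, with starts 16 bp apart, had 3 DOP and 4 SST peaks, of up to 1289 and 1435. None of 1113 olfactory receptor genes lay in a pair. None of the 10 genes on which the study experimented or that its text follows (Sgpl1, Ahnak, Tcf12, Tns1, Htt, Hdac1, Hdac2, Bcl2l11, Sp1 and Actb) lay in one either.

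Of the gene groups counted, the replication-dependent histone genes had the largest share in a pair, and their peaks had lower ranks. Of 67 such genes 27 (40.3%) lay in a pair, and 13 pairs joined 2 of them, of which 12 coupled an H2A with an H2B gene. All 13 had peaks in both lists, on both sides in 12 DOP and 10 SST pairs. The highest peak of a pair had a median percentile of 55.4 in the DOP list (range 16.0 to 92.4) and 49.3 in the SST list (range 13.3 to 92.7), against 81.7 and 81.4 over all pairs. It ranked higher in the DOP list in 10 of the 13 pairs, beside 528 of the 985 pairs marked in both lists (53.6%). Hist1h2ba/Hist1h2aa, which codes for variants of the testis, was the lowest with 145 and 115 and had 1 peak in each list, on the Hist1h2ba side. Hist2h2ac/Hist2h2be was the highest with 1203.3 and 1206.9. These genes are near-identical copies of each other, so the placement of reads among them is uncertain, and the part of this in their lower ranks was not tested.

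**Figure D5:**
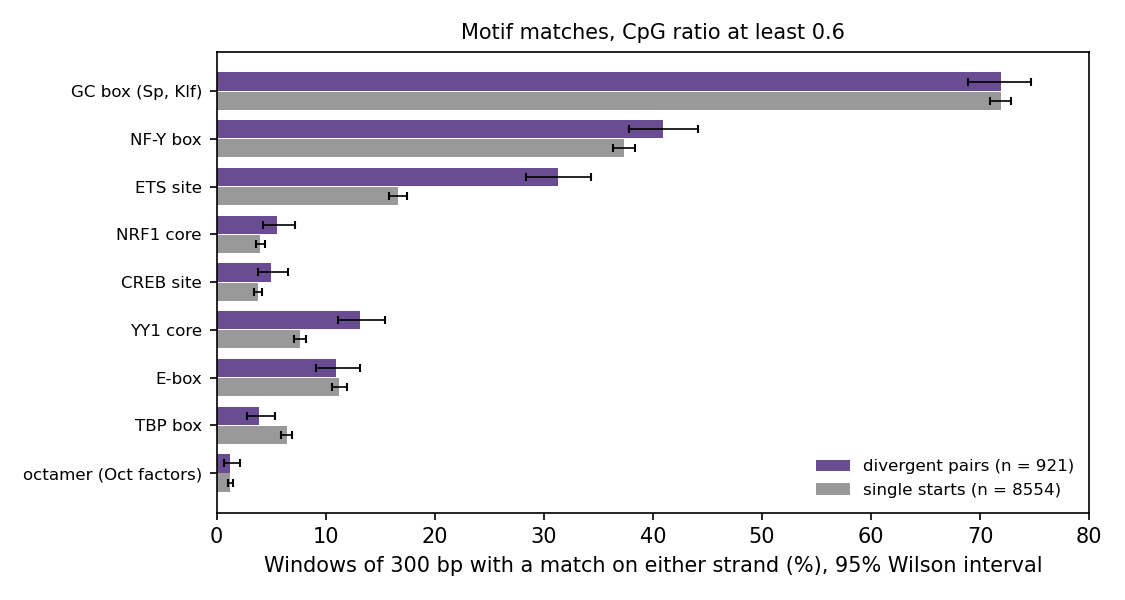
Share in percent (horizontal axis) of 300 bp windows that hold each set of letters, for divergent pairs and single starts with a CpG ratio of at least 0.6, with 95% Wilson intervals as bars. The ETS letters were present in 31.3% of the 921 pairs and 16.6% of the 8554 single starts, while the GC box was present in 71.9% of both.

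The bases around the midpoints of pairs differed from those of single promoters in some of the letters searched. Letters were searched on both strands in 300 bp centred on the midpoint of a pair, and from 250 bp upstream to 50 bp downstream of a single start. With a median gap of 135 bp, most pair windows also reach into both genes. The ETS letters CCGGAAG, shown in capitals in the sequences above, were present in 298 pairs (27.6%, interval 24.99 to 30.3) and in 9.06% of single starts. Among windows with a CpG ratio of at least 0.6 the shares were 31.3% (interval 28.4 to 34.3) and 16.6% (interval 15.8 to 17.4). With windows placed at the paired starts in the same way as at single ones, the share was 30.9% of CpG-rich paired starts. Such a window also takes in the start of the partner where the gap is at most 250 bp, so it does not make paired and single starts alike. The YY1 core ATGGCGG was present in 13.1% of CpG-rich pairs and 7.62% of CpG-rich single starts, and the CCAAT box in 40.9% and 37.3%. The GC box GGGCGG had the same share in both, 71.9%, and the E-box CACGTG was in 11.0% and 11.3%. The TATA box letters TATAAA were in 3.91% of CpG-rich pairs (interval 2.84 to 5.36) and 6.42% of CpG-rich single starts (interval 5.92 to 6.96). The NRF1 core CGCATGCG was in 5.54% and 4.00% of them. At CpG-rich paired starts, with windows placed as at single ones, the YY1 core was in 13.0% and the CCAAT box in 41.3%. The GC box was there in 72.2%, the E-box in 11.6%, the TATA box letters in 3.70% and the NRF1 core in 5.85%.

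The 81 pairs without a peak in either list were poorer in CpG. Their median CpG ratio was 0.424 against 0.842 in the 1000 pairs with a peak in either list, their median GC content 56.2% against 62.6% and their median gap 175 bp against 133 bp. Of the pairs with a ratio under 0.6, 101 of 160 (63.1%) had a peak in either list, and of those at or above it 97.6%. The ETS letters were present in 3 of the 81 pairs (3.70%) and in 29.5% of the marked ones. These letters hold a CpG themselves, and 27.2% of the unmarked and 89.9% of the marked pairs had a CpG ratio of at least 0.6. The ETS shares of marked and unmarked pairs were not compared at a like CpG ratio. Among the unmarked pairs were the collagens Col4a4/Col4a3 of the kidney filter, Kirrel2/Nphs1 with the podocyte protein nephrin, the sterol transporters Abcg5/Abcg8 of liver and gut, Hspb2/Cryab of lens and muscle, Duox2/Duoxa2 of the thyroid and Pecam1/Gm885 of the endothelium. Broadly used genes were among them as well, such as Rnf151/Rps2 with a ribosomal protein and Znf512b/Prpf6 with a splicing factor. A pair stands for the closest couple of annotated starts, and whether other starts of these genes carried a peak is not given here. The pair mt-Nd6/mt-Cytb, also among the 81, belongs to the mitochondrial genome and not to the nuclear chromosomes. The CpG ratio was 0.128 at Rnf151/Rps2 and 0.0353 at Znf512b/Prpf6, and 0.992 at Smc1b/Ribc2, a meiotic cohesin gene with its neighbour. These examples were named after their values were seen.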

How the data were processed

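The 5 samples of STHdh Q111 cells were profiled by ChIP-seq for H3K9ac or with IgG. The authors pooled or combined the 2 samples of a condition before or during peak calling in a way not given in the sources used here, and deposited 2 lists with 1 score per peak, a value whose definition, threshold and use of the IgG sample are also not given. The study's methods name Bowtie 2 and GPS, whereas the submitters' processing notes name BWA 0.7.10, and both give mm9. The score was used as a rank within each list, and scores of single peaks were printed as deposited. Of the deposited per-sample columns 0 were left unused, and the IgG sample was not analysed here.

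Start sites of protein-coding transcripts were taken from GENCODE vM1, and bases from the NCBIM37 assembly, which is mm9. Peaks closer than 1 kb to several midpoints were counted once among peaks, and at each pair among pairs. Peaks were shared at 1 bp of overlap. The CpG ratio was the observed over the expected number of CpG in 500 bp. No test between conditions was possible with 1 list each, and no p-value was computed. The pairs named were the textbook pairs found, the pairs with the 3 highest peaks of each list, up to 3 pairs in 1 list only per list, and the 3 with most peaks, of which the last was tied with other pairs and taken by position. Pairs of the gene groups, of the widest rank differences and of those without a peak were named in addition, after their values were seen. Some pairs and markers that these rules name are not reported here. The members and all lists were chosen with earlier results of these data known. The functions were tested on simulated data with 900 gene pairs, and 4 of 4 planted answers were recovered. Alternatives were other definitions of a pair, other windows, higher scores and other rules for sharing. The tools were samtools 1.23.1, matplotlib 3.10.9, pysam 0.24.0, scipy 1.17.1, pandas 2.3.3 and numpy 2.4.6 under Python 3.11.15.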

Additional observations from a re-analysis of the deposited data

How the results depend on the processing

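Of 54 alternatives, 42 stayed within 1.5 times a count or within the 95% interval of a share, and 12 did not. With centres limited to 500 bp of the midpoint, members numbered 1770 in the DOP list and 1794 in the SST list, since this leaves out the outer peaks of each pair. The share of members in 1 list only was then 6.16% (DOP) and 4.57% (SST), and with centres within 2 kb of the midpoint it was 10.7% and 10.6%. Where 50% of both intervals had to overlap, it was 19.1% in each list. With sharing defined by centres within 500 bp it was 3.57% and 2.56%, and by centres within 1 kb 0.938% and 0.674%. The rule for sharing thus set this share more than any other choice tried. The number of pairs with a peak (750 to 1003 in the DOP list, 749 to 999 in the SST list) and of pairs with peaks on both sides (546 to 772 and 512 to 761) stayed within 1.5 times. No paired analysis was possible because each condition has 1 list and no values per replicate. What the score counts and the read depth are unknown, so a missing peak is not shown to be an absence of acetylation.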
